A study of Mus musculus with 2 samples.

Results

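The genes that carry glucose to pyruvate, and pyruvate to lactate or into the mitochondrion, were followed step by step in the immune cells of mouse mammary tumours. The set was a named list of 32 genes: glucose transporters, the glycolytic enzymes and their isoforms, lactate dehydrogenases and exporters, and the gatekeepers of pyruvate entry. All 32 were found among the 31017 gene symbols of the deposited matrices, and 31 had at least 20 unique molecular identifiers (UMIs, each 1 captured transcript) in at least 1 of 5 immune classes. The exception was Fbp1, the gluconeogenic phosphatase that runs the phosphofructokinase step backwards, with 0 to 2 UMIs in any class of either tumour. The tumours were grown from mouse lines named PyMT-M and PyMT-N, the PyMT of both standing for the polyoma middle T oncogene. Line cells were placed in the mammary gland of mice, and tumours were taken at 4 weeks, when they measured 0.7 to 1 cm across. DAPI-negative (viable) cells with CD45, the common surface protein of blood cells, were sorted by flow cytometry and sequenced from the 5′ transcript end in droplets, with 1 library for each line. The labels give no mouse strain, sex, age or number of mice, no treatment, and no meaning for the letters M and N. Line, animal and library therefore cannot be told apart, no test was possible, and no difference below has a replicate check.

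Glycolysis splits glucose into pyruvate in the cytosol and yields energy without oxygen. Pyruvate is then either reduced to lactate, which is exported, or imported into mitochondria and turned into acetyl-CoA by pyruvate dehydrogenase. Neutrophils carry few mitochondria and are known to live largely on glycolysis, and many glycolytic genes are known targets of the hypoxia-inducible factor HIF-1 and of Myc. Several steps have isoforms that differ in tissue use: Hk1 is the housekeeping hexokinase and Hk2 the inducible form, Pfkl, Pfkm and Pfkp are named for liver, muscle and platelet, and Slc2a1 encodes GLUT1 while Slc2a3 encodes the high-affinity GLUT3.

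Of the deposited barcodes, 7476 came from PyMT-M (43977988 UMIs, median 5069.5) and 5020 from PyMT-N (14907736 UMIs, median 1955). The libraries shared 60 barcodes, 50 of them among the 6917 and 4793 cells kept. A cell was given the class for which it showed the most distinct markers out of 8, with at least 3 and a lead of at least 1. This gave 49 PyMT-M and 3158 PyMT-N neutrophils, 177 and 213 monocytes, 5041 and 652 macrophages, 597 and 167 T cells, and 436 and 32 NK cells. Median UMIs a cell were alike in neutrophils of the libraries (1649 and 1717.5), monocytes (5866 and 5810) and macrophages (4958 and 4897), and differed more in T cells (4120 and 3102) and NK cells (6389.5 and 4797.5). Cells at the minimum or with the smallest lead numbered 80 of 177 and 72 of 213 in monocytes, so this class is a range and not a sharp type. Among macrophages they were 285 of 5041 from PyMT-M but 120 of 652 from PyMT-N. The median number of monocyte markers in a macrophage was 0 and 1. Per 1000000 UMIs, macrophages held 27700 and 11623 of C1q genes, and 27217 and 8436 of Apoe. Of the 8 macrophage markers only Mrc1 was higher in PyMT-N, at 119 and 220. The part of these marker differences in the macrophage ratios was not tested. The labels call the cell type tumor, but cells with epithelial markers numbered only 135 and 12. C1q genes, which macrophages make, put macrophage RNA at 7.75% of the UMIs of PyMT-M neutrophils and at 0.722% in PyMT-N. The PyMT-M neutrophils held 114552 UMIs in all and the PyMT-N NK cells 184955, the smallest totals among the 5 classes, so these carry the widest counting error of the 5. Levels below are UMIs of a gene per 1000000 UMIs of the class (CPM). A molecule gives 1 UMI whatever its length, so levels of different genes were not divided by length. Differences are given as the log2 ratio of CPM, PyMT-N divided by PyMT-M, after adding 1 CPM to both, and their 95% intervals were computed without that addition and cover counting error only.

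Stretches of 250 bases before the RefSeq transcription start are shown for 4 members with an ACGTG or GCGTG, the core letters of the element that HIF-1 is known to bind. They are Gapdh, Eno1 and Pgk1, the 3 payoff-phase genes that differed most between the tumours in macrophages, and Hk2, the leading hexokinase there. Capitals mark ACGTG or GCGTG on either strand, so CACGT and CACGC are the same words read on the other strand. The sequences are from RefSeq for build GRCm38.p6 and are written 5′ to 3′ on the strand of the gene. They lie at chr6:125165774-125166023 (minus strand) for Gapdh, chr4:150236458-150236707 (plus) for Eno1, chrX:106186850-106187099 (plus) for Pgk1 and chr6:82774455-82774704 (minus) for Hk2, and overlap no annotated exon.
Gapdh: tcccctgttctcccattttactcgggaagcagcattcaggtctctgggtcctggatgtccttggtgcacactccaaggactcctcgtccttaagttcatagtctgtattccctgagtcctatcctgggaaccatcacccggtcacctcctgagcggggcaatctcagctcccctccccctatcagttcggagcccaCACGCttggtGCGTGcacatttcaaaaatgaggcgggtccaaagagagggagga
Eno1: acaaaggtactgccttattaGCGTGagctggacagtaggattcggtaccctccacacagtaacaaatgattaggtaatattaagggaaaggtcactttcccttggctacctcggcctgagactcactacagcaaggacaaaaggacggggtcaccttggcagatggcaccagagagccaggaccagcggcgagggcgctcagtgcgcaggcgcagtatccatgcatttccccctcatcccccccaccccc
Pgk1: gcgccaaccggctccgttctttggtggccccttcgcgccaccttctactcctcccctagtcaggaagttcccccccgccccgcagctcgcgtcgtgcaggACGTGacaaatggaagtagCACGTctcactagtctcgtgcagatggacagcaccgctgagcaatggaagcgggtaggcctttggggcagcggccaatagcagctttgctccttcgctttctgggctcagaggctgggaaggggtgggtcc
Hk2: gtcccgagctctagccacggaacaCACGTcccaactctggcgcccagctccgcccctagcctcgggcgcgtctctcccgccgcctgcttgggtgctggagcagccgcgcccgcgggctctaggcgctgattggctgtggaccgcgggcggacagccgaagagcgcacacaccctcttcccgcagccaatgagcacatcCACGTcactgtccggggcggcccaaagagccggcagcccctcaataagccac
Gapdh held GCGTG 54 and 44 bases before its start, and Pgk1 held ACGTG 150 and 131 bases before. Hk2 held ACGTG 226 and 52 bases before its start, and Eno1 a GCGTG 230 bases before. ACGTG was present in 12 of the 31 member windows matched (38.7%) and in 16.5% of all 27025 windows, and GCGTG in 17 (54.8%) and in 28.3%. Either word was found in 24 member windows (77.4%), in 38.6% of all windows, and in 55.5% of the 7149 windows within the members' middle range of GC content. The bases after the start of 3 members with a match (Ldha, Pdha1, Pgam1) were not found in a GENCODE transcript of the gene, so their starts are less sure, and they are in these counts. Member windows averaged 60.9% GC against 53.0% for all. The longer word CACGTG, which contains ACGTG and which Myc is known to bind, was in 3 member windows (9.68%) and 6.04% of all. A match is a string of letters and not a measured binding site, and Slc2a3 had no entry. Some members had more than 1 start entry (3 for Eno1, 4 for Pfkm), and 1 window was used for each. The Gapdh window lies inside the GENCODE span of the gene, which runs to 125166467. Matches and their positions therefore depend on the start used.

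Summed over all 32 genes, the pathway took a larger part of the RNA in PyMT-N than in PyMT-M in each of the 5 classes. In neutrophils the sum was 97.7 UMIs per 10000 in PyMT-M and 198 in PyMT-N, a 2.03-fold difference (1.91 to 2.15). In macrophages it was 38.3 and 85.1 (2.22-fold, 2.19 to 2.25), in monocytes 51.5 and 84.7 (1.65-fold, 1.59 to 1.70). T cells held 40.9 and 66.5 (1.62-fold, 1.57 to 1.68), and NK cells 37.6 and 48.4 (1.29-fold, 1.2 to 1.38). Neutrophils thus had the highest sum in both tumours, and the macrophages of PyMT-N came up to the level of its monocytes. Gapdh alone made up much of the difference: without it the ratios were 1.55 in neutrophils, 1.64 in macrophages, 1.30 in monocytes, 1.28 in T cells and 0.972 in NK cells, the last with an interval of 0.893 to 1.06. Summed with Gapdh, the step from triose phosphate to pyruvate (Tpi1 to Pkm) differed most. It differed 2.57-fold in neutrophils, 3.25-fold in macrophages, 2.14-fold in monocytes, 2.31-fold in T cells and 1.87-fold in NK cells. Gapdh belongs to this step, at 1074 and 6362 CPM in neutrophils and 506 and 3050 in macrophages. The step was not summed or ranked without Gapdh, so these ratios do not show a difference of all its genes. The upper steps, from transport to aldolase, was 1.76-fold higher in PyMT-N neutrophils and 1.54-fold higher in macrophages, but stood at 0.914 of the PyMT-M sum in T cells (0.843 to 0.989) and 0.672 in NK cells (0.561 to 0.798). The summed genes of mitochondrial entry stayed near parity, from 0.818 in neutrophils (0.648 to 1.05) to 1.17 in macrophages (1.11 to 1.22). Most UMIs of this sum came from the carriers Mpc1 and Mpc2, and single genes in it differed in opposite directions, as given below.

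**Figure D1:**
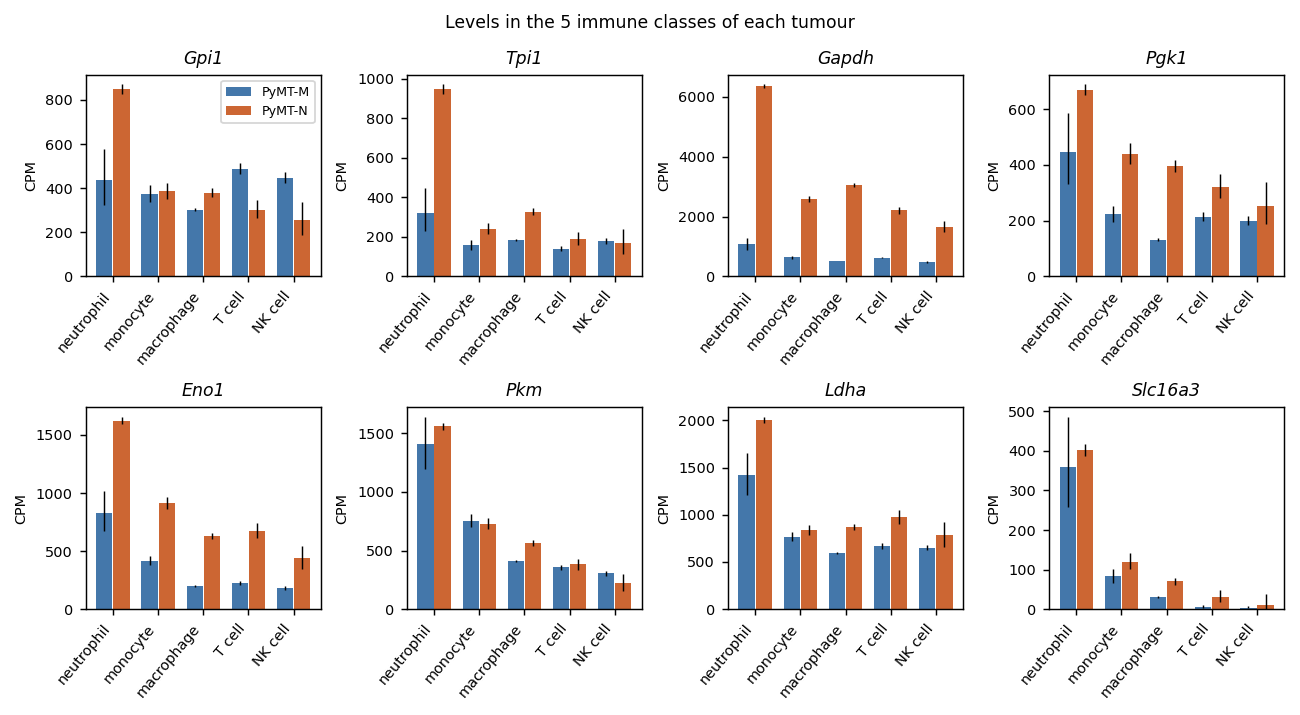
Level in CPM (vertical axis, from 0) of 8 members in the 5 immune classes, with PyMT-M and PyMT-N side by side and 95% Poisson intervals of counting error. Gapdh and Eno1 stood higher in PyMT-N in each class, Pkm was higher in PyMT-N macrophages and lower in its NK cells, and Slc16a3 was highest in neutrophils of both tumours.

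Glucose enters through the Slc2a carriers. Slc2a1 (chr4:119108711-119137983, GRCm38) was at 183 CPM in PyMT-M neutrophils and 271 in PyMT-N, at 14.9 and 45.5 CPM in macrophages, at 25.9 and 41.7 in monocytes, at 13.9 and 16.3 in T cells, and at 12.0 and 5.41 in NK cells. Neutrophils stood above every other class in both tumours, and the difference between tumours was clearest in macrophages (log2 ratio 1.55, 1.34 to 1.88). Slc2a6, a carrier of lysosomal membranes, went the other way in macrophages, from 28.1 CPM in PyMT-M to 6.11 in PyMT-N (log2 ratio -2.03, -2.88 to -1.59). The most abundant carrier RNA of macrophages therefore differed. Slc2a6 made up 62.3% of the 1281 carrier UMIs in PyMT-M (exact interval 59.6 to 65.0%), and Slc2a1 made up 82.0% of the 200 in PyMT-N (76.0 to 87.1%). Monocytes showed the same order with fewer UMIs, Slc2a6 holding 63.6% of 77 in PyMT-M and 38.4% of 86 in PyMT-N. Under a stricter class rule, Slc2a1 led in PyMT-M monocytes too. As Slc2a6 is a carrier of lysosomal membranes, these shares do not show which carrier takes up glucose. Between Slc2a1 and Slc2a3 alone, Slc2a1 led in macrophages of both tumours, with 423 against 60 UMIs in PyMT-M and 164 against 14 in PyMT-N. Slc2a3 had a larger share in neutrophils and lymphocytes than in the other classes: it took 28.9% and 24.0% of carrier UMIs in neutrophils of PyMT-M and PyMT-N, 42.3% in PyMT-M T cells and 45.9% in PyMT-M NK cells, but 4.68% and 7% in macrophages and 0 of 77 and 0 of 86 in monocytes (upper limits 4.68% and 4.20%).

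Hexokinase traps glucose in the cell as glucose 6-phosphate, and the leading isoform differed between classes. Hk1 held 93.3% of the 163 hexokinase UMIs in PyMT-M T cells and 90.7% of the 150 in NK cells. In PyMT-N T cells its share was 73.1% of 26 UMIs (52.2 to 88.4%), the other 7 UMIs being Hk2. In monocytes no isoform led clearly: Hk1 had 28 and Hk2 27 of 68 UMIs in PyMT-M, and 28 and 41 of 82 in PyMT-N. Hk2 led in macrophages of both tumours, with 49.2% of 1921 UMIs and 54.6% of 291, and in PyMT-N neutrophils, with 58.2% of 1742. Hk3, a hexokinase of myeloid cells, supplied 33.8% and 28.2% in macrophages, 21.5% in PyMT-N neutrophils and at most 5.33% in lymphocytes of PyMT-M. Between tumours, Hk2 was at 43.6 CPM in PyMT-M neutrophils (5 UMIs) and 157 in PyMT-N (log2 ratio 1.82, 0.62 to 3.47). It was at 33.3 and 44.1 CPM in macrophages, a log2 ratio of 0.40 (0.16 to 0.65). Hk1 was at 8.73 CPM in PyMT-M neutrophils, which is 1 UMI, and 54.7 in PyMT-N (log2 ratio 2.52, 0.16 to 7.96), so its size in that class is barely fixed by the counts. Hk1 was lower in PyMT-N than in PyMT-M T cells, 28.1 against 50.3 CPM (log2 ratio -0.82, -1.61 to -0.15). Hk3 did not differ beyond its interval in any class where it was measured.

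Gpi1, which turns glucose 6-phosphate into fructose 6-phosphate, was higher in PyMT-N in 2 classes and lower in 2. It was at 436 CPM in PyMT-M neutrophils and 849 in PyMT-N (log2 ratio 0.96, 0.56 to 1.39), and at 303 and 378 in macrophages (0.32, 0.24 to 0.40). Monocytes were level, at 374 and 387 CPM (0.05, -0.15 to 0.24). In T cells it was at 488 and 303 CPM (-0.69, -0.91 to -0.48), and in NK cells at 447 and 254 (-0.81, -1.27 to -0.40). In PyMT-M the level of Gpi1 in T and NK cells lay above that in macrophages, and in PyMT-N below it.

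Phosphofructokinase is the committing step of glycolysis. Pfkl led in macrophages (69.8% of 1226 UMIs in PyMT-M and 65.0% of 246 in PyMT-N), Pfkp led in T cells (71.3% of 244 and 71.0% of 62) and in PyMT-M NK cells (65.4% of 182), and PyMT-N neutrophils used both, 53.9% Pfkp and 45.9% Pfkl of 1626. Pfkm, the muscle form, held at most 6.45% of the step where it had 20 or more UMIs. Pfkl was at 34.9 CPM in PyMT-M neutrophils (4 UMIs) and 115 in PyMT-N (log2 ratio 1.69, 0.36 to 3.60). Pfkp was at 61.1 CPM (7 UMIs) and 135, a log2 ratio of 1.13 (0.10 to 2.47). In macrophages, Pfkl was at 30.1 and 44.4 CPM (0.54, 0.31 to 0.80) and Pfkp at 10.7 and 22.2 (0.99, 0.68 to 1.42), while monocyte Pfkp was lower in PyMT-N, at 39.4 against 63.0 CPM (-0.66, -1.23 to -0.13).

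The bifunctional enzymes Pfkfb3 and Pfkfb4 set the level of fructose 2,6-bisphosphate, the strongest activator of phosphofructokinase. Pfkfb3 had 1220 UMIs in PyMT-N neutrophils (189 CPM) and 0 in those of PyMT-M, where a count of 0 allows up to 26.2 CPM (3 UMIs). Against that floor PyMT-N was at least 7.2-fold higher, and the exact lower limit of the ratio was 5.85-fold, with the PyMT-M side resting on 49 cells. In macrophages it was at 34.9 and 38.6 CPM, and in monocytes at 25 and 29.1, differences within their intervals. Pfkfb4 was lower in PyMT-N macrophages, 23.3 against 39.9 CPM (log2 ratio -0.75, -1.11 to -0.45), so that Pfkfb3 supplied 62.3% of the UMIs of this step in PyMT-N macrophages and 46.7% in PyMT-M.

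Aldolase cuts the 6-carbon sugar into 2 trioses. Aldoa held at least 98.7% of aldolase UMIs in each class, and Aldoc, the brain form, was measured in neutrophils and macrophages, where it was at 3.84 and 12.5 CPM in the latter (log2 ratio 1.48, 1.17 to 2.22). Aldoa was at 1344 and 2334 CPM in neutrophils (log2 ratio 0.80, 0.57 to 1.03) and at 502 and 942 in macrophages (0.91, 0.85 to 0.96). It was at 508 and 887 CPM in monocytes (0.80, 0.66 to 0.96) and at 531 and 610 in T cells (0.20, 0.04 to 0.36), but at 491 and 373 in NK cells (-0.40, -0.77 to -0.05). When cells were classed by marker UMIs in place of distinct markers, the monocyte ratio of Aldoa was 0.09 and the NK ratio 0.027. The symbol covers 2 gene identifiers that were summed, the lesser of which had 0 to 17 UMIs in any class.

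The payoff phase begins with Tpi1, which interconverts the trioses, and Gapdh, which oxidises glyceraldehyde 3-phosphate. Gapdh (chr6:125161715-125166467, minus strand) was the most abundant member in PyMT-N in each class. It was at 1074 CPM in PyMT-M neutrophils and 6362 in PyMT-N, a 5.93-fold difference (log2 ratio 2.57, 2.31 to 2.83). In macrophages the levels were 506 and 3050 CPM, 6.03-fold apart (2.59, 2.56 to 2.63). Monocytes had 638 and 2590 CPM (2.02, 1.90 to 2.14), T cells 629 and 2210 (1.81, 1.71 to 1.91), and NK cells 482 and 1654 (1.78, 1.60 to 1.96). B cells, at 136 and 756 CPM, and dendritic cells, at 423 and 1253, leaned the same way in the few cells there were (54 and 61, 40 and 11). Neutrophil RNA, judged by S100a8 and S100a9, made up 0.267% of PyMT-N T cell UMIs and would bring 17.0 CPM of Gapdh into them. Macrophage RNA would bring 34.9 CPM, against the 2210 measured. In PyMT-N B cells neutrophil RNA made up 3.45% of UMIs and would bring 220 CPM, and macrophage RNA 35.7, a larger part of the 756 measured. In PyMT-M B cells these were 0 and 22.7 CPM of 136, and in PyMT-N dendritic cells 1.79 and 3.39 of 1253. The class rule moved the monocyte value most, to 1.48 by marker UMIs.

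Tpi1 was at 323 and 948 CPM in neutrophils (log2 ratio 1.55, 1.09 to 2.06), 183 and 328 in macrophages (0.84, 0.75 to 0.93), 157 and 242 in monocytes (0.62, 0.34 to 0.90), 140 and 189 in T cells (0.43, 0.14 to 0.72) and 176 and 168 in NK cells. Without removal of doublets the neutrophil ratio was 1.00, and by marker UMIs the monocyte ratio changed sign to -0.16. Pgk1, which makes ATP from 1,3-bisphosphoglycerate, was at 132 CPM in PyMT-M macrophages and 396 in PyMT-N (1.58, 1.5 to 1.67), at 222 and 440 in monocytes (0.98, 0.76 to 1.21), at 445 and 669 in neutrophils (0.59, 0.19 to 1.02) and at 214 and 322 in T cells (0.59, 0.36 to 0.81). Pgam1, the mutase before enolase, differed by 0.48 to 0.95 in these 4 classes and by -0.34 in NK cells, where its interval includes 0 (-0.93 to 0.19). By marker UMIs the monocyte ratio of Pgam1 was -0.12.

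Eno1, the enolase that makes phosphoenolpyruvate, was the other payoff gene above its interval in all 5 classes. It was at 829 and 1624 CPM in neutrophils (log2 ratio 0.97, 0.68 to 1.28), 199 and 633 in macrophages (1.66, 1.60 to 1.74) and 417 and 912 in monocytes (1.13, 0.97 to 1.29). T cells had 229 and 677 CPM (1.56, 1.39 to 1.74) and NK cells 184 and 438 (1.25, 0.90 to 1.59). Pkm, the pyruvate kinase of most tissues and the last ATP-forming enzyme, stood apart from its neighbours in the pathway. It was at 1405 and 1560 CPM in neutrophils (0.15, -0.07 to 0.38), 414 and 565 in macrophages (0.45, 0.38 to 0.52), 755 and 728 in monocytes (-0.05), 357 and 381 in T cells (0.09), and 306 and 222 in NK cells (-0.46, -0.95 to -0.01). Only macrophages and NK cells had a Pkm ratio beyond counting error, in opposite directions.

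Lactate dehydrogenase reduces pyruvate to lactate. Ldha was, beside Pkm, the most abundant member in PyMT-M neutrophils, at 1423 CPM, and stood at 2001 in those of PyMT-N (log2 ratio 0.49, 0.27 to 0.72). It was at 592 and 869 CPM in macrophages (0.55, 0.50 to 0.61), 769 and 837 in monocytes (0.12, -0.01 to 0.26), 667 and 975 in T cells (0.55, 0.42 to 0.68) and 653 and 784 in NK cells (0.26, 0.01 to 0.51). Ldha was thus higher in PyMT-N by a smaller factor than Gapdh in each class. Ldhb, the form typical of oxidative tissue, was highest in PyMT-M macrophages: at 61 CPM there and 25.3 in PyMT-N macrophages (-1.24, -1.59 to -0.97), it made up 9.35% and 2.83% of lactate dehydrogenase UMIs. In other classes its share was at most 2.12%, and in PyMT-N neutrophils it was 30 of 12981 UMIs.

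Lactate leaves through the monocarboxylate carriers MCT1 (Slc16a1) and MCT4 (Slc16a3), the latter typical of cells that export much lactate. Slc16a3 was at 358 and 402 CPM in neutrophils, 83.4 and 120 in monocytes, 31.1 and 70.5 in macrophages, 6.28 and 31 in T cells, and 4 and 10.8 in NK cells. The order of classes was the same in both tumours, and the difference exceeded counting error in macrophages (log2 ratio 1.15, 0.97 to 1.38), T cells (2.14, 1.34 to 3.28, from 19 and 21 UMIs) and monocytes (0.53, 0.15 to 0.92). Slc16a3 held at least 93.7% of carrier UMIs in the myeloid classes. In T cells Slc16a1 held 55.8% of 43 UMIs in PyMT-M and 32.3% of 31 in PyMT-N, with intervals that overlap (39.9 to 70.9% and 16.7 to 51.4%). Slc16a1 was rare in macrophages, at 1.73 and 4.72 CPM (1.07, 0.56 to 2.27).

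Pyruvate enters mitochondria through the carrier formed by Mpc1 and Mpc2, is oxidised by the dehydrogenase complex, of which Pdha1 and Pdhb form E1 and Dlat is E2, and is held back by the kinases Pdk1 and Pdk3, which switch E1 off. Mpc1 was at 236 and 202 CPM in neutrophils, 144 and 187 in macrophages (log2 ratio 0.37, 0.26 to 0.49), 156 and 189 in T cells, and 182 and 146 in NK cells. Mpc2 differed by -0.36 to 0.18 with intervals that include 0 in all 5 classes. The E1 and E2 genes were low in neutrophils of PyMT-N, where Pdha1 was at 17.9 CPM, Pdhb at 25.8 and Dlat at 8.04. Dlat was at 34.9 CPM in PyMT-M neutrophils, from 4 UMIs (-1.99, -3.56 to -0.19). In macrophages Pdha1 was at 28.8 and 37.8 CPM (0.38, 0.12 to 0.66), and Pdhb at 51.6 and 35.3 (-0.54, -0.82 to -0.29). Pdk1, a known HIF-1 target, was at 11.8 and 29.4 CPM in macrophages (1.25, 0.99 to 1.63). It was at 8.73 (1 UMI) and 41.9 CPM in neutrophils (2.14, -0.23 to 7.57), and had 32 and 0 UMIs in NK cells, where the interval of the ratio includes parity. Pdk3 was at 16.1 and 24.2 CPM in macrophages (0.56, 0.24 to 0.92) and at 45.4 and 28.3 in monocytes (-0.66, -1.34 to -0.03).

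**Figure D2:**
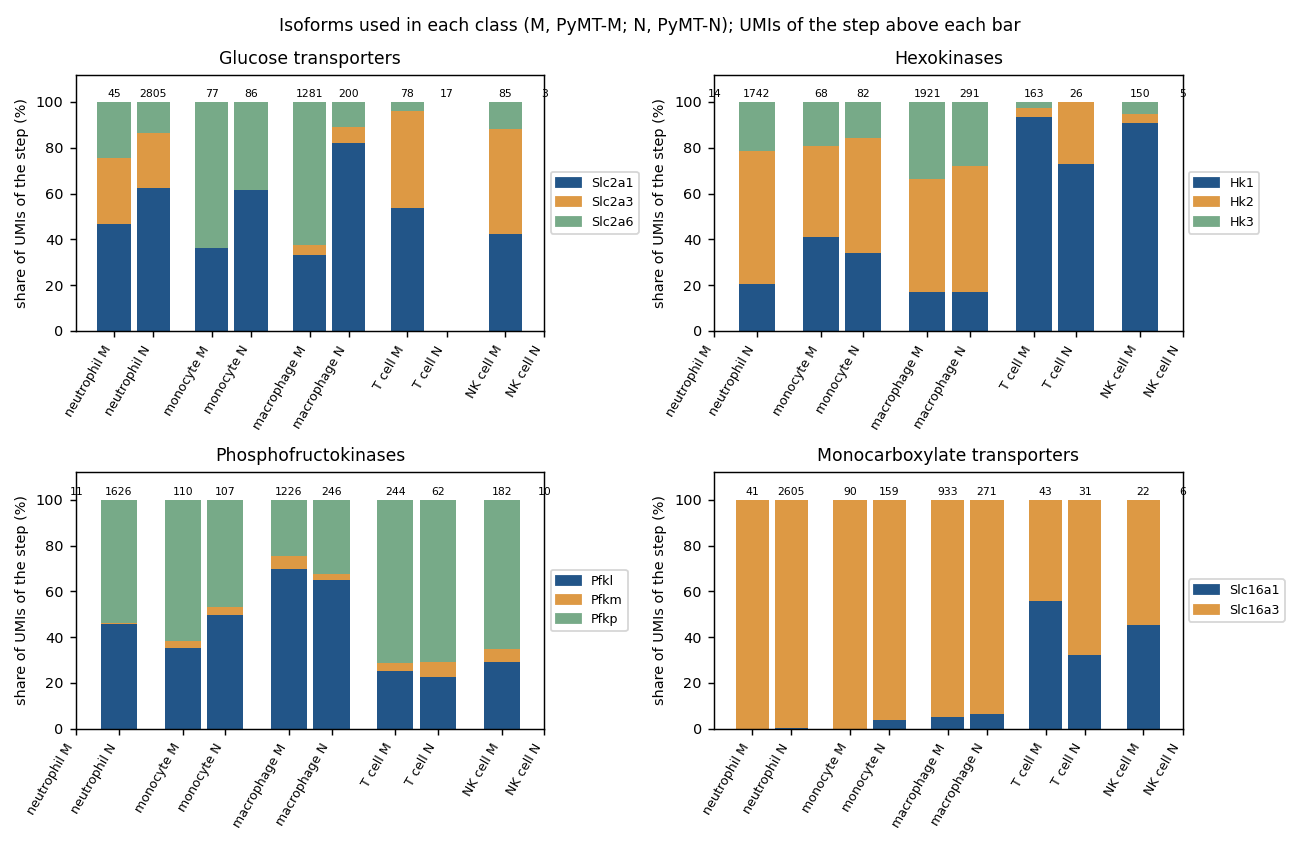
Share (percent, vertical axis) of each isoform among the UMIs of its step in each class and tumour, with the UMIs of the step above each bar and no bar where they were under 20. Hk1 and Pfkp led in lymphocytes, and Hk2 and Pfkl in macrophages. The Slc2a gene with the most UMIs in macrophages was Slc2a6 in PyMT-M and Slc2a1 in PyMT-N.

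Counted together, members at least 2-fold higher in PyMT-N were commoner than genes at large in macrophages and less clearly so elsewhere. In macrophages 31 members were measured, with a median log2 ratio of 0.54 against -0.19 for all 11863 genes. Past 2-fold towards PyMT-N were 8 of them (Slc2a1, Aldoc, Gapdh, Pgk1, Eno1, Slc16a1, Slc16a3, Pdk1), beside 3.41% of all genes, and past 2-fold towards PyMT-M were 2 (Slc2a6, Ldhb), beside 8.52%. The interval lay above 0 for 20 members and below 0 for 4. In neutrophils 29 members were measured, with a median of 0.59 (0.56 with genes at 0 set to 3 UMIs) against -0.00 for all genes. Past 2-fold towards PyMT-N were 10 (9 at that floor): Hk1, Hk2, Pfkl, Pfkp, Pfkfb3, Aldoc, Tpi1, Gapdh, Ldhb and Pdk1. Ldhb is the one lost at the floor: it had 0 PyMT-M UMIs and 4.64 CPM in PyMT-N, below the 26.2 CPM that a count of 0 allows, so its direction is not known. Towards PyMT-M there were 2 (Dlat, Pdk3), but with 49 PyMT-M cells the same held for 25.7% and 16.1% of all genes. The neutrophil count is thus not far above its background, and 13 members had an interval above 0 and 1 below.

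In monocytes 27 members had a median of 0.18 against -0.11 for all genes. Past 2-fold were 2 (Gapdh, Eno1) towards PyMT-N and 0 towards PyMT-M, beside 2.84% and 5.2% of all genes, and by marker UMIs only 1 was. In T cells 25 members had a median of 0.20 against -0.10. Past 2-fold were 3 (Gapdh, Eno1, Slc16a3) towards PyMT-N and 1 (Ldhb, from 21 and 2 UMIs) towards PyMT-M, beside 4.73% and 9.07% of all genes. In NK cells the 21 members had a median of -0.17 against -0.22. Gapdh and Eno1 were past 2-fold towards PyMT-N and 3 members (Slc2a1, Hk1, Pdk1, from 1, 4 and 0 PyMT-N UMIs) towards PyMT-M, beside 5.97% and 20.8% of all genes. The NK members as a group were therefore near their background in both directions.

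**Figure D3:**
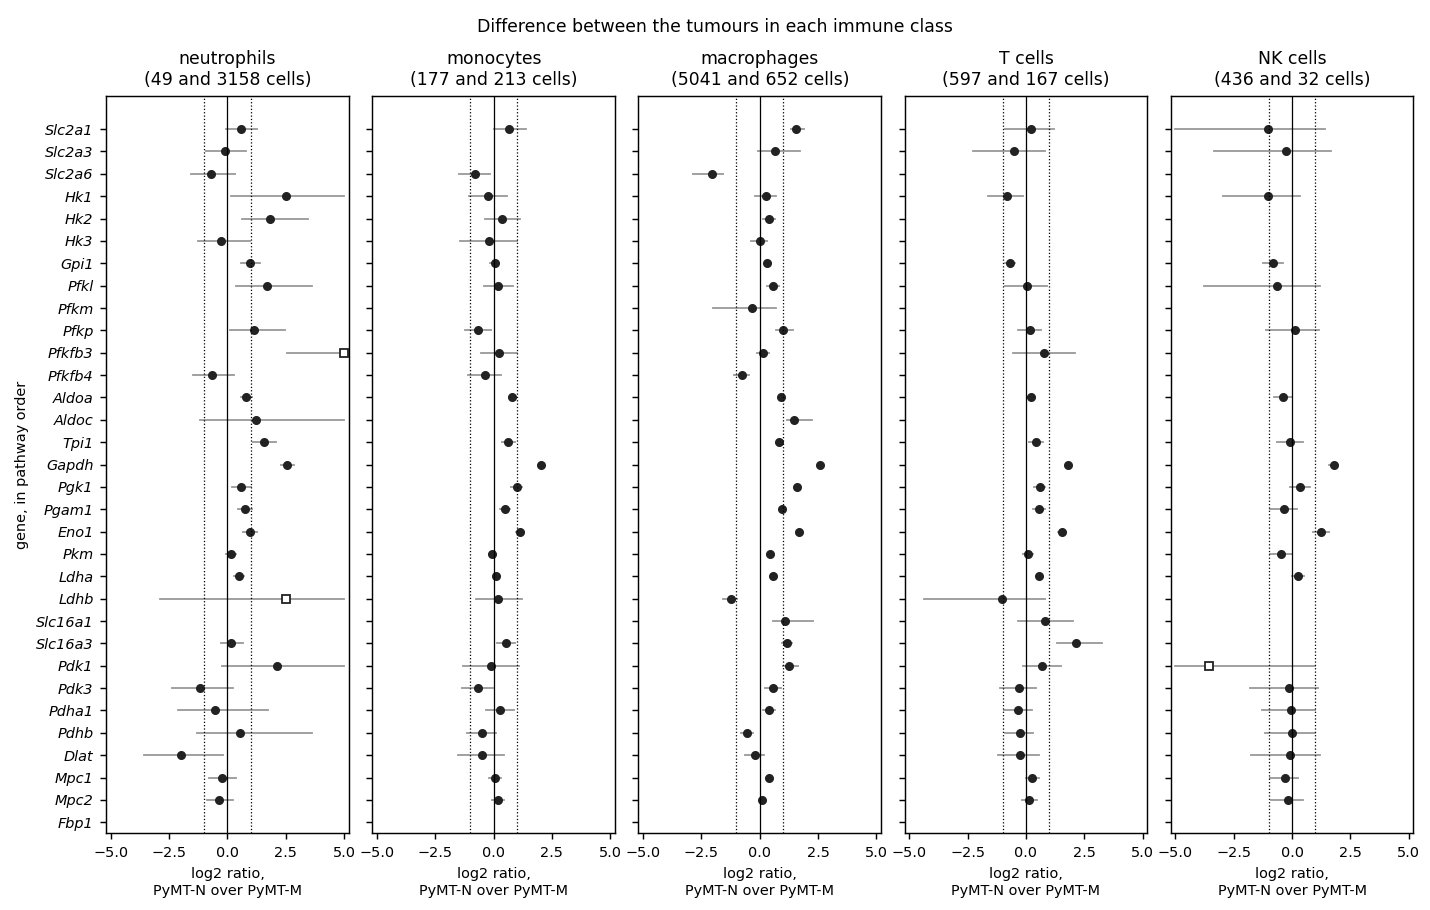
Log2 ratio of PyMT-N over PyMT-M (horizontal axis) of each measured member in the 5 classes, with 95% intervals of counting error, a solid line at 0 and dotted lines at 2-fold. Open squares are genes with 0 UMIs in a library, whose position depends on the added 1 CPM, and Pfkfb3 in neutrophils (7.57) is drawn at the edge of its panel. Gapdh and Eno1 lie above 0 in each panel, and intervals are widest in neutrophils and NK cells.

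Of the 20 members measured in all 5 classes, 4 were higher in PyMT-N in each (Gapdh, Pgk1, Eno1, Ldha) and 2 (Gapdh, Eno1) had intervals above 0 in each. Gapdh was at least 2-fold higher in all 5 classes, as were 17 other genes, 0.3% of the 6009 genes measured in all, and its smallest ratio, 1.78, was the second largest among them after Sys1 (2.13). The others included Tomm6, Snrpg, Rpl36al, Rps28, Rps29 and Rpl38. Many of these share sequence with other genes: of the 31-base words in the first 500 bases of their transcripts, 90.1% in Tomm6, 33.1% in Rpl36al and 37.0% in Gapdh also occur in another gene's transcripts, though Igfbp6 shares 0. Among members the share was 67.9% in Pgam1, 42.0% in Pgk1, 35.6% in Eno1, 30.2% in Pfkm, 28.6% in Ldhb, 26.4% in Pkm, 24.3% in Gpi1, 20.2% in Pdhb, 19.8% in Ldha, 14.8% in Mpc1, 12.9% in Tpi1 and under 10% in the rest. Genes with a share of 50% or more passed 2-fold towards PyMT-N more often than genes under 10%: 14.9% against 2.58% in macrophages, 15.3% against 2.06% in monocytes, 13.1% against 4.18% in T cells, 17.3% against 5.31% in NK cells and 34.7% against 25.9% in neutrophils. Genes between these limits, where Gapdh, Eno1 and Pgk1 lie, passed 2-fold towards PyMT-N in 6.01% of cases in macrophages, 5.04% in monocytes, 6.36% in T cells, 7.92% in NK cells and 21.8% in neutrophils, the last below the share of genes under 10%. In T cells genes of 50% or more were also more often at least 2-fold lower, 17.3% against 9.04%. A read from shared sequence does not by itself identify its gene, so levels of Gapdh, Eno1, Pgk1 and Pgam1 are uncertain to that extent. The part of shared sequence in their differences was not tested. Among the 19 macrophage members under 10%, 5 passed 2-fold towards PyMT-N (Slc2a1, Aldoc, Slc16a1, Slc16a3, Pdk1).

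Within PyMT-N, where both classes held many cells, neutrophils carried more RNA of most members than macrophages did. At least 2-fold higher in neutrophils were 19 of the 30 members measured, and in macrophages 3, where 16.1% and 27.8% of all genes were. The median log2 ratio of neutrophils over macrophages was 1.31 for members and -0.23 for all 10081 genes. Slc2a3 differed most, at 104 CPM in neutrophils and 3.89 in macrophages (log2 ratio 4.43, 3.99 to 5.62), followed by Slc2a6 at 58.7 and 6.11 (3.07), Pfkp at 135 and 22.2 (2.55), Slc2a1 at 271 and 45.5 (2.55) and Slc16a3 at 402 and 70.5 (2.49). The 5 largest neutrophil excesses were thus those of the glucose carriers, Pfkp and the lactate exporter. Higher in macrophages were Ldhb, at 25.3 CPM against 4.64, Pdha1, at 37.8 against 17.9, and Slc16a1, at 4.72 against 0.464. The mitochondrial carriers Mpc1 and Mpc2 were level, with ratios of 0.11 and 0.15. In PyMT-M the median ratio was 1.01 for 31 members and -0.69 for all 11724 genes. It rests on 49 neutrophils with 114552 UMIs, beside 28400241 UMIs in macrophages. At least 2-fold higher in neutrophils were 16 members and 1631 of all genes. At least 2-fold higher in macrophages were 5 of the 31 members and 4914 of all 11724 genes. With members at 0 UMIs set to 3 the count of members was 2, a floor that was not applied to all genes. The part of the low neutrophil depth in these values was not tested.

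**Figure D4:**
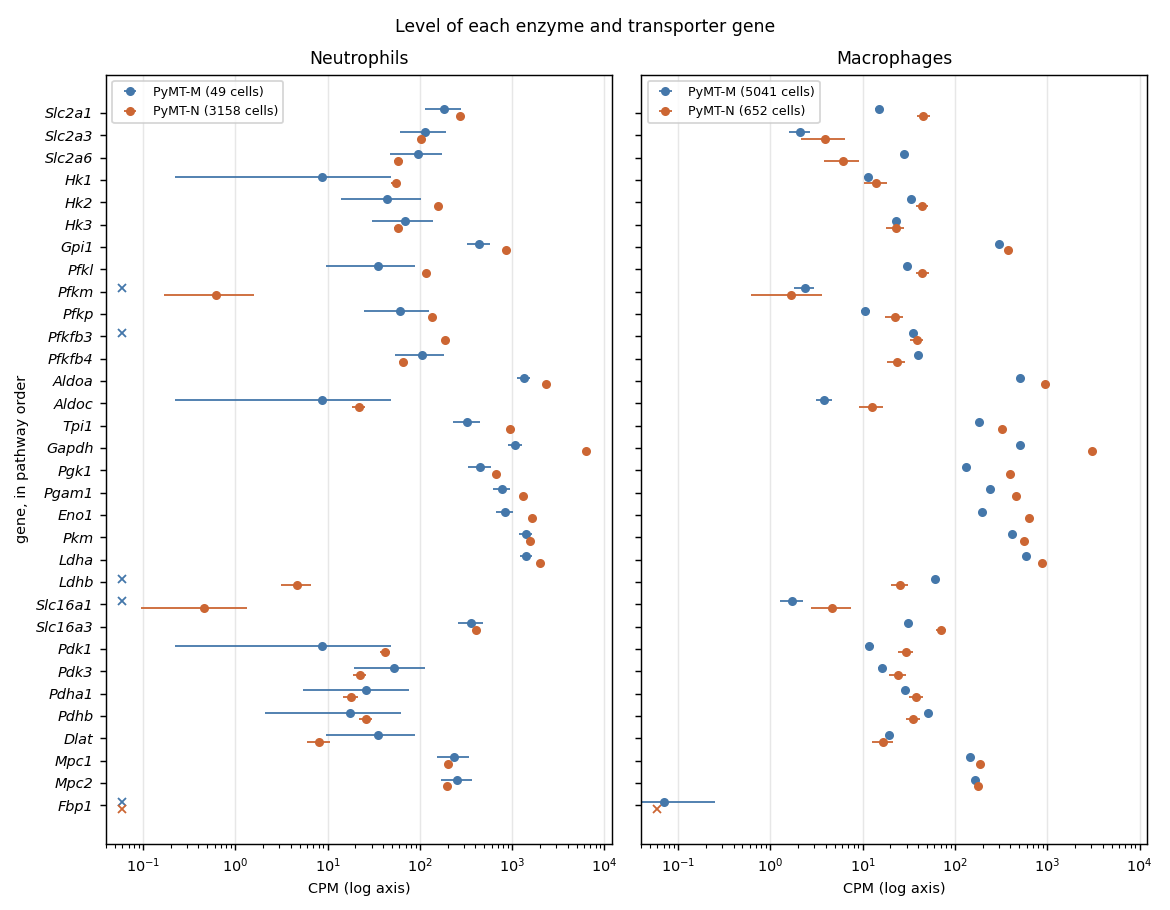
Level of each member in CPM (horizontal log axis) in neutrophils and macrophages, PyMT-M and PyMT-N, with 95% Poisson intervals; a cross marks 0 UMIs. In PyMT-N, Slc2a1, Slc2a3, Pfkp and Slc16a3 stand further right in neutrophils than in macrophages, and Ldhb, Slc16a1 and Pdha1 further left.

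Cells differed widely within a class. After each cell was thinned to 1000 UMIs, PyMT-N neutrophils held a median of 16 member UMIs, from 6 at the 10th percentile to 40 at the 90th, and 2 of 2985 held 0. PyMT-M neutrophils held a median of 8 (44 cells), and macrophages 3 in PyMT-M and 7 in PyMT-N. Monocytes held 5 and 7, T cells 3 and 5, and NK cells 3 and 4. Cells left out as too shallow numbered 5 and 173 neutrophils, 194 and 25 macrophages and at most 5 in each other class and tumour.

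PyMT-N neutrophils with at least 1 UMI of Hilpda, a lipid droplet gene known to be induced by hypoxia, held more pathway RNA than those without at the same depth. The 1119 cells with Hilpda had a mean of 29.3 member UMIs per 1000 (SD 15.6 over cells) and the 1866 without had 14.4 (SD 9.35). Among 28 members measured, 14 passed 2-fold upwards with Hilpda, as did 4.46% of all genes, and 3 downwards, as did 6.55%. The median log2 ratio was 1.05 against -0.17 for all 7113 genes. Pfkp was at 77.2 CPM without Hilpda and 254 with (log2 ratio 1.70, 1.42 to 2.02), Pfkfb3 at 111 and 345 (1.62, 1.38 to 1.88), Hk2 at 99.7 and 278 (1.47, 1.21 to 1.75) and Slc2a3 at 55.7 and 147 (1.39, 1.04 to 1.77). Gpi1 was at 531 and 1348 CPM (1.34), Tpi1 at 630 and 1580 (1.33), Gapdh at 4415 and 9752 (1.14) and Ldha at 1370 and 3046 (1.15). From Gpi1 to Ldha, Pfkfb4 aside, each measured member was thus higher with Hilpda, by 0.69 (Pkm) to 1.70. The members past 2-fold downwards were Pfkfb4, at 78.8 CPM without and 34.0 with (-1.19, -1.77 to -0.69), Pdha1 (-1.24) and Dlat (-1.53, from 18 and 3 UMIs), while Slc2a6 was at 57.3 and 46.5 CPM (-0.30, -0.81 to 0.19) and Pdk3 at -0.02. The mitochondrial carriers were lower by less than 2-fold, Mpc1 at -0.55 (-0.82 to -0.30) and Mpc2 at -0.44 (-0.69 to -0.19). A cell with 0 Hilpda UMIs may still make the transcript, and cells of 1 tumour are not replicates.

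**Figure D5:**
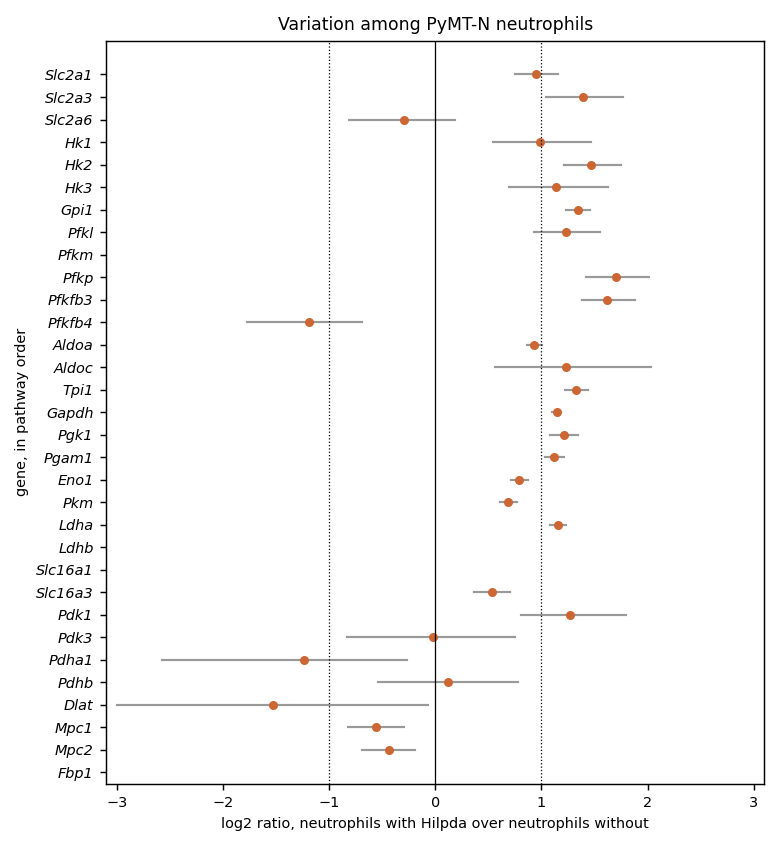
Log2 ratio (horizontal axis) of neutrophils with at least 1 Hilpda UMI over those without, in PyMT-N after thinning to 1000 UMIs, with 95% intervals of counting error and dotted lines at 2-fold. From Gpi1 to Ldha the members lie right of 0, from Pkm at 0.69 to Pfkp at 1.70, except Pfkfb4, which lies left with Pdha1, Dlat, Mpc1 and Mpc2.

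Siglecf and Retnlg, the other genes compared, did not mark neutrophils in the same way. Neutrophils with the tumour-associated marker Siglecf (329) had a mean of 15.5 member UMIs against 20.6 in those without (2656). Those with Retnlg (1046), typical of blood neutrophils, had 21.3 against 19.3 (1939). The median log2 ratio of members was -0.49 with Siglecf, against 0.23 for all genes. With Retnlg it was 0.09 against -0.56, so members stood above their background there. Past 2-fold upwards with Retnlg were 2 of 28 members, Slc2a3 (1.25, 0.91 to 1.63) and Slc2a6 (1.58, 1.14 to 2.10), beside 191 of 7113 genes. Past 2-fold downwards were 2, Pdha1 (-1.49, -3.03 to -0.45) and Dlat (-1.41, -4.10 to 0.08, from 18 and 3 UMIs), beside 2084 genes. Falls past 2-fold were thus rarer among members than among all genes. PyMT-N macrophages with Hilpda (58) had a mean of 15.3 against 7.92 in those without (569), with Pgk1 at 346 and 966 CPM (1.48, 1.02 to 1.91) and Ldha at 773 and 1724 (1.16, 0.83 to 1.47).

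Genes around the pathway gave a mixed picture. Of 12 known hypoxia-induced genes outside glycolysis, those past 2-fold towards PyMT-N numbered 10 of 11 measured in neutrophils (25.7% of all genes), 8 of 10 in monocytes (2.84%), 9 of 12 in macrophages (3.41%), 6 of 8 in T cells (4.73%) and 0 of 6 in NK cells (5.97%). Their medians were 1.71, 1.92, 2.29, 1.65 and -1.20. With genes at 0 UMIs set to 3 UMIs, neutrophils had 9 such genes and a median of 1.51, and the NK median was 0.00. Hilpda was at 218 and 1658 CPM in neutrophils, 19.4 and 214 in macrophages and 42.7 and 155 in T cells, but at 97.7 and 27.0 in NK cells (log2 ratio -1.82, -3.49 to -0.62, from 5 PyMT-N UMIs). Bnip3, a mitophagy receptor, was at 37.2 and 168 CPM in macrophages, 25.9 and 131 in monocytes and 9.26 and 54.7 in T cells.

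The tricarboxylic acid cycle, which burns the acetyl-CoA made from pyruvate, and the pentose phosphate branch had medians below 0 in each class, as all genes measured had (-0.22 in NK cells to -0.00 in neutrophils). Of 16 tricarboxylic acid cycle genes, 15 or 16 were measured in each class and the median was -0.28 in neutrophils, -0.18 in monocytes, -0.05 in macrophages, -0.29 in T cells and -0.54 in NK cells. Only neutrophils had any past 2-fold towards PyMT-N (2 of 15, and 3 towards PyMT-M), and NK cells had 4 of 16 towards PyMT-M. Against the 25.7% and 16.1% of all genes in neutrophils and the 20.8% in NK cells, these counts are near the background. Mdh2, malate dehydrogenase, was at 506 and 288 CPM in neutrophils (-0.81, -1.19 to -0.41) and 159 and 176 in macrophages (0.14, 0.02 to 0.26). The 7 pentose phosphate genes had medians of -0.08 in macrophages to -0.24 in T cells. The highest of them, Taldo1 (transaldolase), was at 1117 and 603 CPM in neutrophils (-0.89, -1.14 to -0.62). Of 25 other pathway genes 6 to 16 were measured, with medians from -0.33 in macrophages to -0.01 in monocytes (NK cells 0.00 with genes at 0 UMIs set to 3). Among them Bsg, the chaperone of the lactate carriers, was at 402 and 849 CPM in neutrophils (1.08, 0.66 to 1.53) and at 442 and 468 in macrophages, and Pdk2 was at 9.93 and 3.05 in macrophages (-1.43, -2.72 to -0.84).

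Among 8 regulators of the pathway, Hif1a, the oxygen-sensitive subunit of HIF-1, was at 52.9 and 148 CPM in T cells (log2 ratio 1.46, 1.11 to 1.85), 44.3 and 60.5 in macrophages (0.44, 0.24 to 0.66) and 113 and 189 in neutrophils (0.73, -0.04 to 1.65). Its protein is set mainly by degradation, which RNA does not show. Myc was lower in PyMT-N T cells, at 59.1 against 129 CPM (-1.12, -1.64 to -0.66). Txnip, which restrains glucose uptake, was lower in PyMT-N macrophages, at 65.0 against 169 CPM (-1.36, -1.57 to -1.19), and Egln1, an oxygen-sensing hydroxylase, higher there, at 25.8 against 9.47 (1.36, 1.09 to 1.79). The regulators had medians of 0.86 in neutrophils, 0.15 in monocytes, -0.27 in macrophages, -0.21 in T cells and -0.56 in NK cells. All genes measured had medians of -0.00, -0.11, -0.19, -0.10 and -0.22 in the same order. The neutrophil value rests on 6 regulators, and the interval of each included 0.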

How the data were processed

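Raw counts of UMIs per gene and barcode were deposited by the authors for 2 libraries of sorted CD45-positive cells, 1 per tumour line. The matrix headers name software version 3.1.0. Cell Ranger, Seurat and build mm10 are named in the submitters' processing notes, without a version. Symbols shared by several identifiers were summed.

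A barcode needed 200 genes and no more than 10% of UMIs from mitochondrial genes; 119 in PyMT-M and 26 in PyMT-N failed this. Scrublet (scanpy 1.11.5) marked 0 cells by its automatic threshold, which means that it did not work here, so the 440 and 201 cells with the highest scores, 0.8% per 1000 barcodes, were removed instead. Classes came from 9 sets of 8 marker genes. The scoring rule (3 distinct markers, lead of 1) was settled after class sizes had been seen, and 373 and 480 cells were left unassigned. The members, lists and markers were chosen with earlier results of these data known.

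Within a class, the UMIs of all its cells were added up and scaled to CPM. A gene was measured with 20 UMIs over both sides, and counted as higher past 2-fold. Intervals at 95% are exact: Poisson for levels, conditional binomial for ratios, Clopper-Pearson for shares. Since molecules of 1 library are not independent samples of the tumour, all cover counting error only. With 1 library per line no test was run. All 32 members are named, the most abundant of each step and those past 2-fold in full, and of each list the highest member and up to 4 past 2-fold in a class. The calculation was tested on simulated counts. Positions are from GENCODE for GRCm38, by identifier, and promoters from RefSeq for GRCm38.p6. Python 3.11.15, numpy 2.4.6, scipy 1.17.1 and pandas 2.3.3 were used. Alternatives covered scaling, count filters, the pseudocount, class rules, doublets, the mitochondrial limit, RNA of other classes, the weight of cells, shared sequence and thinning.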

Additional observations from a re-analysis of the deposited data

Results flagged for a closer look

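For 6 members the log2 ratio of PyMT-N over PyMT-M lay above 0 in 1 class and below 0 in another, each beyond its interval of counting error. With 1 library per line the difference between classes was not tested. Hk1 was at 2.52 in neutrophils, from 1 UMI in PyMT-M, and at -0.82 in T cells. Gpi1 was at 0.96 in neutrophils and -0.81 in NK cells. Pfkp was at 1.13 in neutrophils and -0.66 in monocytes. Aldoa was at 0.91 in macrophages and -0.40 in NK cells, the latter being 0.027 when cells were classed by marker UMIs. Pkm was at 0.45 in macrophages and -0.46 in NK cells, and Pdk3 at 0.56 in macrophages and -0.66 in monocytes.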

How the results depend on the processing

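The median log2 ratio of the members kept its sign in each class under each alternative, from 0.36 to 0.97 in neutrophils, 0.03 to 0.37 in monocytes, 0.48 to 0.74 in macrophages, 0.16 to 0.30 in T cells and -0.37 to -0.02 in NK cells. Median-of-ratios scaling set the median of all neutrophil genes at 0.24, and the PyMT-N median of neutrophils over macrophages at 1.57. Small counts of members past 2-fold moved. Those higher in PyMT-M numbered 1 in neutrophils and in NK cells and 0 in T cells with that scaling or with 100 UMIs, and 0 in T cells with that scaling over genes of 1000 UMIs or with each cell counting the same. With a minimum of 1 UMI they numbered 1 in monocytes, 2 in T cells and 7 in NK cells, where 5 were higher in PyMT-N. Under the stricter class rule 4 monocyte members were higher in PyMT-N, while 1 in monocytes, 0 in T cells and 1 in NK cells were higher in PyMT-M. Classed by marker UMIs, 5 neutrophil members and 0 T cell members were higher in PyMT-M, and 1 monocyte member in PyMT-N. Without doublet removal 1 neutrophil and 0 NK members were higher in PyMT-M. In cells without RNA of other classes, 0 T cell members were higher in PyMT-M and 1 in macrophages over neutrophils. With members of little shared sequence, those higher in PyMT-N numbered 0 in monocytes, 5 in macrophages, 1 in T cells and 0 in NK cells, those higher in PyMT-M 1 in macrophages and 0 in T cells, those higher in neutrophils than macrophages 12, and those higher with Hilpda 8; here fewer genes were counted. Members lower with Hilpda numbered 1 with 100 UMIs, either other class rule, a 20% mitochondrial limit, or no RNA of other classes.

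Of 64 pairs of member and class whose interval excluded 0, 575 values were recomputed: 525 stayed within the interval, 47 moved beyond it with the same sign, and 3 changed sign, all when cells were classed by marker UMIs (Tpi1 -0.16 and Pgam1 -0.12 in monocytes, Aldoa 0.027 in NK cells). Gapdh ranged from 1.48 to 2.14 in monocytes and from 1.68 to 2.82 in the other classes. Apart from the settings named, the cause of these moves was not tested. The leading isoform was the same in 77 to 86 of 86 combinations of step, class and tumour. The shared-sequence, 1000-UMI scaling and second thinning alternatives were chosen after seeing the data. No paired analysis was possible because each line has 1 library. Depth limits the PyMT-M neutrophils and the PyMT-N NK cells most.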
